A study of Homo sapiens with 12 samples.

Results

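The DNA repair and damage checkpoint genes described here are 51 named genes of 9 pathways, and their mRNA levels were compared between K562 cells treated with the USP7 inhibitor FT671 and cells treated with the solvent DMSO. The members were listed by gene symbol and matched through their Ensembl identifiers to GENCODE release 44. All 51 were found among the 60609 genes in the count files, and all 51 were among the 13895 genes with enough counts to be tested. They comprised 10 Fanconi anaemia genes, 13 genes of homologous recombination, the 3 genes of the MRN complex, 6 checkpoint kinases and activators, 3 chromatin mediators at breaks, 5 end joining genes, 2 mismatch repair genes, 6 nucleotide excision repair genes and 3 genes of base excision and single-strand break repair.

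K562 is an established, erythroid-like cell line derived from the blast crisis of a chronic myeloid leukemia, and it lacks functional p53. Total RNA of 3 libraries from DMSO-treated cells and 3 libraries from cells exposed to 10 μM FT671 for 48 h was depleted of ribosomal RNA and sequenced. The labels name no other treatment or genetic change in either group, and the results hold for this 1 cell line at 1 dose and 1 time. The labels do not say that replicates came from separate cultures, although the study describes its RNA-seq libraries as independent experiments, so p-values measure the spread between these libraries.

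DNA repair pathways divide the work by lesion. The Fanconi anaemia core complex ubiquitinates the FANCD2-FANCI pair at crosslinked DNA, and homologous recombination copies a sister chromatid to mend a double-strand break, whereas end joining ligates the ends directly. Excision pathways remove damaged bases, bulky adducts or mispaired bases, and the kinases ATM and ATR, with CHEK2 and CHEK1 downstream, hold the cell cycle while repair proceeds. USP7 is a deubiquitinase known to stabilise several proteins of these pathways, but the measurements below are of mRNA only.

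Library totals lay between 10969971 and 14250500 counts in DMSO replicates 2 and 1 and FT671 replicate 3 (11437804), and between 4555220 and 5605776 in the other 3 libraries. At these depths 3 counts, taken as the smallest detectable level, equal 0.211 to 0.659 CPM (a gene's counts scaled by the library total), a floor for counting error alone, because PCR copies of a molecule were not marked. The mean level of the members over the 6 libraries ranged from 4.18 to 1042 CPM. DMSO replicate 3 stood apart for these genes. It was the highest of the DMSO libraries for 34 of the 51 members, against 41.7% of all genes tested, and its median deviation from the other DMSO libraries was 0.18 on the log2 scale over the members and 0.0016 over all genes. Counts of calls are therefore given with and without this library, and calls that change without it are given beside the gene. In bulk RNA, fewer cells in a state and less RNA per cell cannot be told apart.

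Expression is given per library in the order of replicates 1, 2 and 3, as CPM on library sizes scaled by the TMM method. The log2 fold change (FT671 over DMSO) and its standard error (SE) come from edgeR's quasi-likelihood test over all 6 libraries, with Benjamini-Hochberg adjustment over the 13895 genes, and a gene is said to have risen or fallen where its adjusted p was under 0.05. Of the 51 genes, 8 fell, 12 rose and 31 did not pass. Over all genes tested, 26.5% fell and 23.6% rose, 50.1% in all, and the members' share of 39.2% was below that background. Among the 11072 genes within the members' range of expression, 55% passed. The members' median log2 fold change was 0.049, against −0.01 over all genes. The summed level of the 51 genes was 4742, 4733 and 5331 CPM in the DMSO libraries and 4756, 4821 and 5054 CPM in the FT671 libraries, and the groups overlapped.

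**Figure D1:**
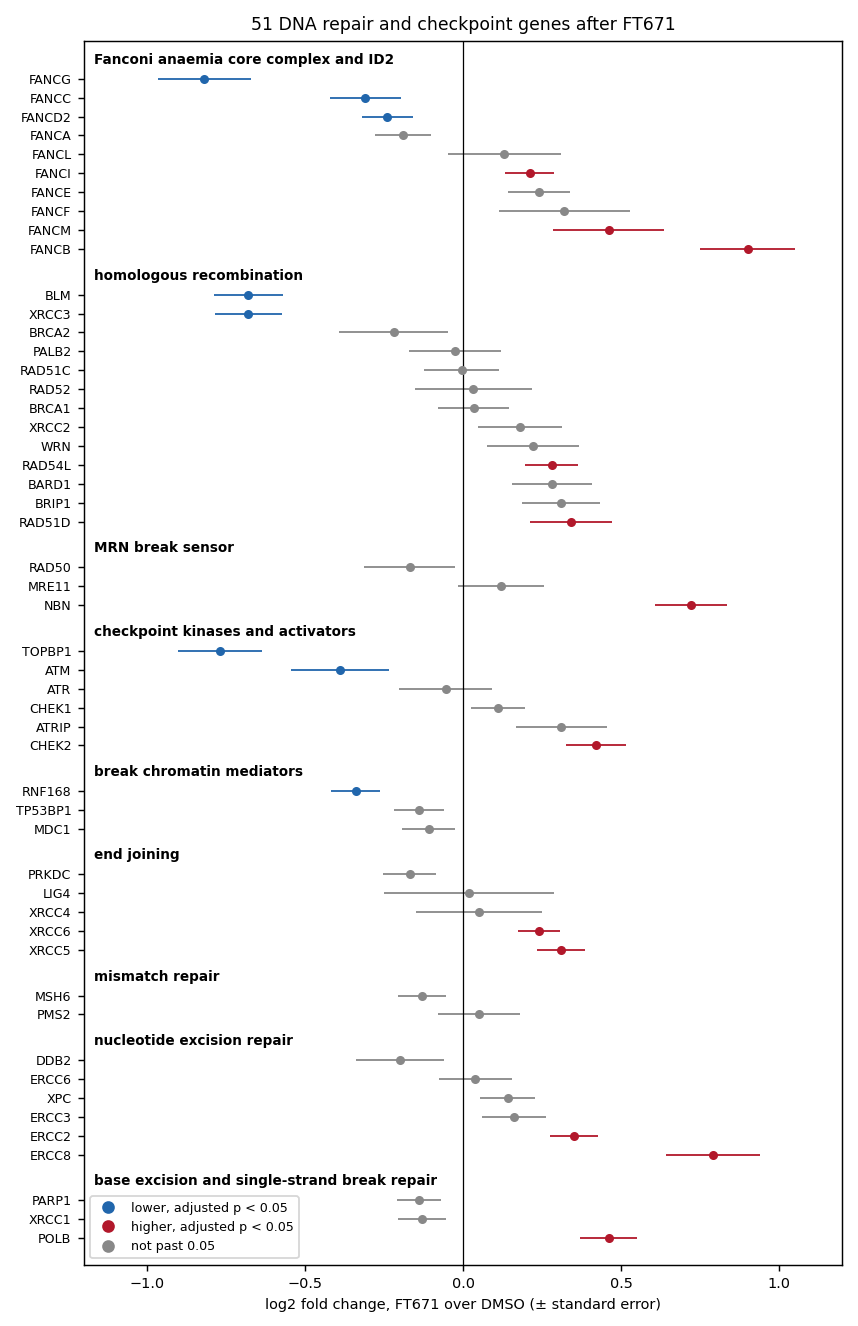
Each point is 1 gene, placed by its log2 fold change (FT671 over DMSO, x axis) with its standard error as the bar, grouped by pathway. Genes that fell and rose lie side by side within most pathways, from FANCG at −0.82 to FANCB at 0.90.

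The changes were small. The median size of a member's log2 fold change was 0.22, against 0.36 over all genes tested. No member changed by more than 1 on the log2 scale, a size that 10.6% of all genes exceeded. At the stricter adjusted p of 1e-05, the threshold of the study's methods, edgeR called 0 of the 51 genes, against 5.92% of all genes, while 24 members were under an unadjusted p of 0.05, against 56.1% of all genes. DESeq2 called 3 members at the same strict threshold, against 12.4% of the genes it tested. Counted by libraries alone, all 3 FT671 values lay below all 3 DMSO values for 12 members and above them for 15. The corresponding background was 30.3% and 26.8% of all genes.

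**Figure D2:**
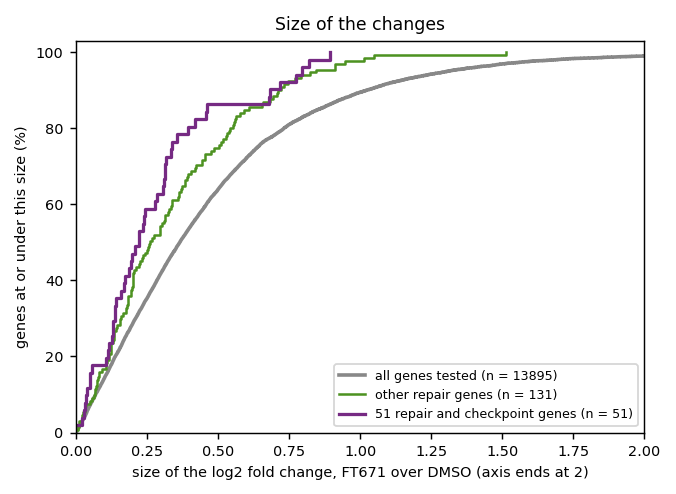
The curves give the share of genes (y axis, percent) whose log2 fold change had at most the size on the x axis, for all 13895 genes tested, the 131 tested genes of a wider repair list and the 51 genes. The curve of the 51 genes ends at 0.90 and lies left of that of all genes over most of its course.

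Without DMSO replicate 3, 7 members fell and 19 rose, against 27.5% and 25.7% of all genes, and 7 members passed 1e-05, against 17.5% of all genes. The 12 members that rose with all libraries were joined by FANCL, BARD1, BRIP1, XRCC2, WRN, MRE11 and CHEK1, and ATM no longer fell. The 7 past 1e-05 were FANCG, XRCC3, BLM and TOPBP1, which were lower, and FANCB, NBN and XRCC5, which were higher. The members are also long genes, with a median of 7876 bases of annotated exon against 4743 over all genes. After a correction for gene length, 5 members fell and 19 rose, against 23.9% and 27.7% of all genes. Without FT671 replicate 1, 5 members fell (22.8% of all genes), and without FT671 replicate 3 again 5 (22.3%). The same 12 members passed 0.05 under every 1 of 17 alternative analyses, and the corresponding share of all genes was not computed. FANCG, XRCC3, BLM, TOPBP1 and RNF168 fell in each of them, and FANCB, NBN, CHEK2, XRCC5, ERCC2, ERCC8 and POLB rose.

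**Figure D3:**
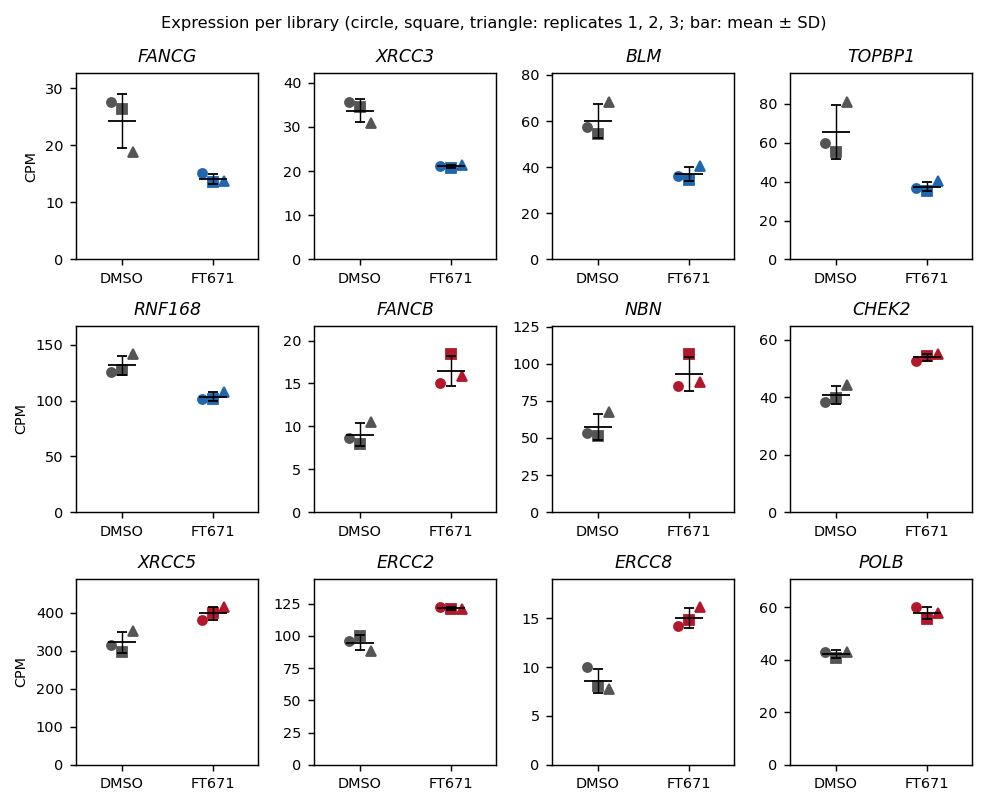
Each panel plots 1 of these 12 genes, with CPM on a y axis that starts at 0, 1 symbol per library and the mean ± SD of 3 libraries as the bar. In every panel the DMSO and FT671 libraries are separate. Of the DMSO libraries, replicate 3 (triangle) lies nearest to FT671 for FANCG (18.9 CPM) and farthest from it for TOPBP1 (81.0 CPM).

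The promoter sequences of these stably called genes are shown so that those that fell can be set beside those that rose. RefSeq's promoter table (GRCh38.p14) matched 45 of the 51 members, and PRKDC, POLB, WRN, NBN, FANCI and XRCC5 had no entry. Of the 12 genes, 9 are therefore printed, each as the 150 bases before the RefSeq start site, 5′ to 3′ on the gene's strand. The RefSeq start lay between 0 and 602 bases from the GENCODE start. Capitals mark matches, on either strand, to the motifs searched. An E2F match was the run GCGGGAA, or else the closely related run GCGCGAA, or otherwise the related run GCGCCAA. The run TTTGAA was searched for the cell cycle homology region (CHR), the run CCAAT for the factor NF-Y, and the run CGGAAG for factors of the ETS family. The intervals are chr9:35079943-35080092 (FANCG, minus strand), chr14:103715452-103715601 (XRCC3, minus), chr15:90717196-90717345 (BLM, plus), chr3:133661942-133662091 (TOPBP1, minus), chr3:196503769-196503918 (RNF168, minus), chrX:14873070-14873219 (FANCB, minus), chr22:28741821-28741970 (CHEK2, minus), chr19:45370574-45370723 (ERCC2, minus) and chr5:60945071-60945220 (ERCC8, minus).
FANCG: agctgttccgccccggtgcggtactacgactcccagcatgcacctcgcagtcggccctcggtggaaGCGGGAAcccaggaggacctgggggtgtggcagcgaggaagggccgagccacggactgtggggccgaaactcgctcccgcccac
XRCC3: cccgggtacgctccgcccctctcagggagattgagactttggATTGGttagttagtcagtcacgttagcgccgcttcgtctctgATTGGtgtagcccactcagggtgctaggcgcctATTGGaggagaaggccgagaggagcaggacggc
BLM: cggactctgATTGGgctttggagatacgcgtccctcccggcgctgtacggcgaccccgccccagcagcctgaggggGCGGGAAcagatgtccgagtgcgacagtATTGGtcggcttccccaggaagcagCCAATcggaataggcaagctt
TOPBP1: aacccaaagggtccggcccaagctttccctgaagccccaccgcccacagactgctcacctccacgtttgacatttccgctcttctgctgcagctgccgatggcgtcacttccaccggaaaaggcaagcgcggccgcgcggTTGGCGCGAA
RNF168: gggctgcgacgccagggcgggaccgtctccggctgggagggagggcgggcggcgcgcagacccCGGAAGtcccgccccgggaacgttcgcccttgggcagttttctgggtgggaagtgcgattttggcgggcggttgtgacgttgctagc
FANCB: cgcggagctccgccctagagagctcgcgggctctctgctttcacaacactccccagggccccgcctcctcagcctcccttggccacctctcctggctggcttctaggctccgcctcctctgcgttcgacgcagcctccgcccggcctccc
CHEK2: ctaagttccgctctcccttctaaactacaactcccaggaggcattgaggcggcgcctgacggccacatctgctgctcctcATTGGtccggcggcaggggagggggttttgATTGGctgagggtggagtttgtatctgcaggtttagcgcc
ERCC2: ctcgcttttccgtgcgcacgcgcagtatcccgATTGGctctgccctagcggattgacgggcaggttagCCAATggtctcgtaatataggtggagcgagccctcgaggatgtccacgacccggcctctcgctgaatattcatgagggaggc
ERCC8: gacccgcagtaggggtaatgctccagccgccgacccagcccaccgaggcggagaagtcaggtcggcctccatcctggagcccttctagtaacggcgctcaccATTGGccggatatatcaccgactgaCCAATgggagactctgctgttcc

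Among the 5 printed promoters of genes that fell, FANCG, BLM and TOPBP1 held an E2F match, and BLM also held 3 NF-Y matches. In TOPBP1, a pair of E2F matches on opposite strands overlapped directly before the start site. XRCC3 held 3 NF-Y matches in the printed stretch, and its E2F match lay elsewhere in the window of 300 bases (250 before to 50 after the start). RNF168 held an ETS match. Of the 4 printed promoters of genes that rose, CHEK2, ERCC2 and ERCC8 each held a pair of NF-Y matches, and FANCB held none of the 4 motifs.

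Over the windows of 300 bases, an E2F match was found in 22 of 45 members (48.9%), against 13.7% of all 19046 promoters and 18.3% of the 9857 promoters of tested genes. It was present in 6 of the 8 members that fell (FANCC, FANCD2, FANCG, XRCC3, BLM and TOPBP1). Of the 8 members that rose and had a promoter entry, 3 held it (RAD51D, RAD54L and XRCC6), as did 13 of the 29 others with an entry. FANCI, NBN, XRCC5 and POLB also rose but had no entry, whereas every member that fell had an entry. The counts for the other motifs leave out the same genes. NF-Y matches were found in 51.1% of members, 36.2% of all promoters and 37.3% of those of tested genes, with 3 of 8 among those that fell and 6 of 8 among those that rose. ETS matches stood in 46.7% of members, 23.8% of all promoters and 34.6% of those of tested genes, with 5 of 8 among those that fell and 2 of 8 among those that rose. For CHR the shares were 13.3% of members, 13.3% of all promoters and 9.41% of those of tested genes, with 2 of 8 and 0 of 8. These shares describe letters in the windows and were not tested, and a match is not a binding site.

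In the Fanconi anaemia pathway, 3 of 10 genes fell and 3 rose, with a median log2 fold change of 0.17. The lowest and the highest value of all 51 genes both came from subunits of its core complex. FANCG, an adaptor subunit (chr9:35073835-35080004), was expressed at 27.6, 26.3 and 18.9 CPM in the DMSO libraries and at 15.1, 13.5 and 13.8 CPM after FT671. All FT671 libraries lay below all DMSO libraries, of which replicate 3 was lowest. FANCG fell by 0.82 on the log2 scale (SE 0.147, edgeR adjusted p = 0.000396).

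FANCB, which joins the core complex's catalytic subcomplex with FANCL (chrX:14690388-14873255), was expressed at 8.59, 7.97 and 10.5 CPM in the DMSO libraries and at 15.1, 18.4 and 15.8 CPM after FT671. The FT671 libraries were all higher, and the log2 fold change was 0.90 (SE 0.15, edgeR adjusted p = 0.000239). FANCL, the complex's ubiquitin ligase, was expressed at 27.5 ± 9.05 CPM in DMSO and 28.9 ± 3.49 CPM in FT671 (SD, n = 3 each), with overlapping libraries and a log2 fold change of 0.13. Its level in DMSO replicate 3, 37.9 CPM, was above all other libraries, and without that library FANCL had a log2 fold change of 0.37 and passed (edgeR adjusted p = 0.00688).

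The substrate pair moved apart. FANCD2 was at 153, 161 and 184 CPM in DMSO and at 141, 136 and 143 CPM in FT671, and it fell by 0.24 (SE 0.0811, edgeR adjusted p = 0.0238). FANCI was at 118, 113 and 130.1 CPM in DMSO and at 131, 143 and 141 CPM in FT671, and its log2 fold change was 0.21 (SE 0.0783, edgeR adjusted p = 0.0394). In neither gene did the groups overlap, but FANCI in DMSO replicate 3 was close to FT671 replicate 1. Of the 17 alternatives, 12 called FANCD2 and 10 called FANCI. The gene length correction moved them in opposite ways, FANCD2 to a log2 fold change of −0.079 (edgeR adjusted p = 0.358) and FANCI to one of 0.33 (edgeR adjusted p = 0.000641).

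Among the other Fanconi genes, FANCC of the core complex fell by 0.31 (edgeR adjusted p = 0.0327), and the DNA translocase FANCM rose with a log2 fold change of 0.46 (edgeR adjusted p = 0.0413). Of the 17 alternatives, 8 called FANCC and 7 called FANCM. FANCE and FANCF, further core subunits, had log2 fold changes of 0.24 and 0.32 and did not pass, and FANCA, at 61.2 ± 3.78 CPM in DMSO and 53.2 ± 1.75 CPM in FT671 (SD, n = 3 each), had one of −0.19 (edgeR adjusted p = 0.0857).

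In homologous recombination, 2 of 13 genes fell and 2 rose, and the median log2 fold change was 0.033. BLM and XRCC3 had the lowest values of the pathway. XRCC3, a recombinase paralog that works in a complex with RAD51C (chr14:103697609-103715504), was at 35.7, 34.5 and 30.9 CPM in DMSO and at 21.1, 20.7 and 21.4 CPM in FT671. Its FT671 libraries were within 1 CPM of each other and below every DMSO library, and it fell by 0.68 (SE 0.107, edgeR adjusted p = 0.000129), the lowest adjusted p among the 51 genes. BLM, the helicase that dissolves joined chromatids (chr15:90717346-90816166), was at 57.4, 54.5 and 68.4 CPM in DMSO and at 35.98, 34.5 and 40.3 CPM in FT671. The groups did not overlap, and BLM fell by 0.68 (SE 0.11, edgeR adjusted p = 0.000171).

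Of the 51 members, 34 share annotated exon bases with another gene. XRCC3 and BLM each do so with a gene on the opposite strand. KLC1 covers 76.7% of the annotated exon bases of XRCC3 and had a log2 fold change of −0.22 (edgeR adjusted p = 0.0957). The long noncoding gene ENSG00000287061 covers 8.61% of those of BLM and fell by 1.06 (edgeR adjusted p = 0.00013). The strand setting of the counting is not given in the sources used here, and the part of these neighbours in the 2 results was not tested.

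RAD51D, a further recombinase paralog, was at 12.6, 12.8 and 14.4 CPM in DMSO and at 16.2, 18.0 and 15.7 CPM in FT671. Its libraries did not overlap, and its log2 fold change of 0.34 was the highest of the pathway (SE 0.13, edgeR adjusted p = 0.0443). RAD54L, a motor protein of strand invasion, was at 80.9, 87.5 and 79.9 CPM in DMSO and at 109.7, 98.0 and 94.6 CPM in FT671, all FT671 libraries being higher (log2 fold change 0.28, SE 0.0835, edgeR adjusted p = 0.0134). The call held under 14 of 17 alternatives for RAD54L and under 7 for RAD51D. LRRC41, on the opposite strand, covers 19.9% of the annotated exon bases of RAD54L and had 10694 counts, against 4650 for RAD54L. Its log2 fold change was −0.09 (edgeR adjusted p = 0.315), and its part in the result for RAD54L was not tested.

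The remaining 9 genes did not pass, with log2 fold changes between −0.22 for BRCA2 and 0.31 for BRIP1. BRCA1, a ubiquitin ligase with its partner BARD1, was at 76.9, 70.0 and 98.7 CPM in DMSO and at 76.2, 83.9 and 87.6 CPM in FT671, and the groups overlapped (log2 fold change 0.033, edgeR adjusted p = 0.826). BARD1 was at 15.2, 15.2 and 18.9 CPM in DMSO and at 19.8, 20.4 and 19.0 CPM in FT671, with every FT671 library slightly higher (log2 fold change 0.28, edgeR adjusted p = 0.0761). BRCA2, which loads the recombinase, was highest in DMSO replicate 3 at 26.1 CPM, and its other 5 libraries lay between 14.2 and 19.7 CPM. PALB2, the bridge between BRCA1 and BRCA2, had a log2 fold change of −0.026, RAD51C one of −0.0054, the annealing factor RAD52 one of 0.032, XRCC2 one of 0.18 and the helicase WRN one of 0.22.

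Without DMSO replicate 3, 4 of these 9 genes passed. WRN then had a log2 fold change of 0.39 (edgeR adjusted p = 0.00194), BRIP1 one of 0.38 (edgeR adjusted p = 0.00881), BARD1 one of 0.36 (edgeR adjusted p = 0.0154) and XRCC2 one of 0.30 (edgeR adjusted p = 0.0341). BRCA2 moved from −0.22 to −0.045 and BRCA1 from 0.033 to 0.17 (edgeR adjusted p = 0.0639), and neither passed.

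Of the MRN complex, which senses and tethers broken ends, the signalling subunit NBN rose, and the other subunits did not pass with all 6 libraries. NBN (chr8:89924515-90003228) was at 53.5, 51.1 and 67.5 CPM in DMSO and at 85.3, 106 and 88.0 CPM in FT671. The groups did not overlap, and its log2 fold change was 0.72 (SE 0.114, edgeR adjusted p = 0.000154). The nuclease MRE11 was at 52.8, 49.1 and 73.6 CPM in DMSO and at 55.1, 61.3 and 69.0 CPM in FT671 (log2 fold change 0.12, edgeR adjusted p = 0.505). Without DMSO replicate 3, where it was highest, MRE11 passed with a log2 fold change of 0.29 (edgeR adjusted p = 0.00698). RAD50, the coiled-coil ATPase, was at 23.3, 19.4 and 18.9 CPM in DMSO and at 20.4, 20.9 and 15.6 CPM in FT671 (log2 fold change −0.17, edgeR adjusted p = 0.354). Both MRE11 and RAD50 overlapped between groups. A gene on the same strand, ENSG00000283782, covers 76.9% of the annotated exon bases of RAD50 and had 0 counts, and STAR's gene counting leaves out a read that falls on more than 1 gene, so the level of RAD50 is uncertain.

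Among the checkpoint kinases and their activators, 2 of 6 genes fell and 1 rose. TOPBP1, the scaffold that switches on ATR (chr3:133598175-133662380), was at 59.8, 55.0 and 81.0 CPM in DMSO and at 36.9, 35.4 and 40.0 CPM in FT671. Every FT671 library lay below every DMSO library, and TOPBP1 fell by 0.77 (SE 0.132, edgeR adjusted p = 0.000274). ATR itself was at 21.1, 19.6 and 29.6 CPM in DMSO and at 23.1, 20.6 and 22.2 CPM in FT671, and the groups overlapped (log2 fold change −0.055, edgeR adjusted p = 0.779). ATRIP, the partner that carries ATR to single-stranded DNA, was at 11.5, 9.89 and 10.5 CPM in DMSO and at 15.1, 12.6 and 12.5 CPM in FT671, where all libraries were higher without passing (log2 fold change 0.31, edgeR adjusted p = 0.0906). TREX1, on the same strand with 0 counts, covers 26.7% of the annotated exon bases of ATRIP.

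CHEK2, the effector kinase below ATM (chr22:28687743-28742422), was at 38.3, 39.8 and 44.2 CPM in DMSO and at 52.6, 54.3 and 55.0 CPM in FT671. The libraries of each group lay close together and apart from those of the other, and the log2 fold change was 0.42 (SE 0.094, edgeR adjusted p = 0.00217). ATM, the kinase activated by double-strand breaks, was at 33.0, 29.0 and 47.1 CPM in DMSO and at 25.1, 28.7 and 27.2 CPM in FT671. It fell by 0.39 (SE 0.154, edgeR adjusted p = 0.0471), but DMSO replicate 2 was within 1 CPM of FT671 replicate 2, and without DMSO replicate 3 the log2 fold change was −0.21 (edgeR adjusted p = 0.098). CHEK1, the effector kinase below ATR, was at 165 ± 13.5 CPM in DMSO and 177 ± 15.3 CPM in FT671 (SD, n = 3 each), with overlapping libraries and a log2 fold change of 0.11, which became 0.17 without DMSO replicate 3 (edgeR adjusted p = 0.0406). CHEK2 has near-identical pseudogene copies in the genome, as have FANCD2, PMS2 and XRCC6, so reads of these genes may have been split or left out.

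Of the chromatin mediators, RNF168, the ubiquitin ligase that marks histone H2A at breaks (chr3:196468783-196503768), fell. Its level was 125, 127 and 141 CPM in DMSO and 101, 101 and 108 CPM in FT671. The groups did not overlap, and RNF168 fell by 0.34 (SE 0.0776, edgeR adjusted p = 0.00247). MDC1, the adaptor that binds phosphorylated H2AX, was at 475, 569 and 580.1 CPM in DMSO and at 492, 479 and 529 CPM in FT671, with overlap between groups (log2 fold change −0.11, edgeR adjusted p = 0.275). TP53BP1, which steers breaks toward end joining, had a log2 fold change of −0.14 (edgeR adjusted p = 0.168).

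In end joining, both subunits of the Ku heterodimer, which binds DNA ends, rose. XRCC5 (Ku80, chr2:216107464-216206303) was at 316, 296 and 351 CPM in DMSO and at 380.0, 398 and 415 CPM in FT671, without overlap (log2 fold change 0.31, SE 0.0765, edgeR adjusted p = 0.00387). XRCC6 (Ku70, chr22:41621163-41664048) was at 309, 312 and 317 CPM in DMSO and at 355, 371 and 384 CPM in FT671, again without overlap (log2 fold change 0.24, SE 0.066, edgeR adjusted p = 0.00722). Without a filter on low counts XRCC6 lost its call, while XRCC5 kept its own under every alternative.

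PRKDC, the catalytic subunit that Ku recruits, was at 1068, 1015 and 1230 CPM in DMSO and at 918, 962 and 1059 CPM in FT671. The groups overlapped, and its log2 fold change of −0.17, the lowest of the pathway, did not pass (edgeR adjusted p = 0.103). LIG4, the ligase that seals the ends, had the lowest mean CPM of the 51 genes, and its cofactor XRCC4 was also low. LIG4 was at 2.98, 4.12 and 5.55 CPM in DMSO and at 5.33, 3.43 and 3.66 CPM in FT671, and XRCC4 was at 6.16, 6.23 and 7.58 CPM in DMSO and at 5.996, 5.23 and 8.13 CPM in FT671. The groups overlapped for both, with log2 fold changes of 0.019 (SE 0.269) and 0.049 (SE 0.2). Differences of the size of these errors, and somewhat larger ones, were therefore not detectable at this depth.

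In mismatch repair neither member passed. MSH6, of the mismatch sensor, was at 165, 151 and 177 CPM in DMSO and at 151, 147 and 151 CPM in FT671 (log2 fold change −0.13, edgeR adjusted p = 0.172). PMS2, of the endonuclease that follows it, was at 16.1, 16.1 and 16.8 CPM in DMSO and at 16.7, 14.4 and 18.7 CPM in FT671 (log2 fold change 0.049, edgeR adjusted p = 0.777). The groups overlapped for both genes.

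In nucleotide excision repair, 2 of 6 genes rose and the other 4 did not pass. ERCC8, the substrate receptor of the ubiquitin ligase that acts at stalled RNA polymerase (chr5:60866454-60945073), was at 9.97, 8.06 and 7.76 CPM in DMSO and at 14.2, 14.8 and 16.2 CPM in FT671. All FT671 libraries were higher, and the log2 fold change was 0.79 (SE 0.149, edgeR adjusted p = 0.000553). ERCC2, a helicase of the transcription factor TFIIH (chr19:45349837-45370918), was at 95.8, 99.8 and 88.5 CPM in DMSO and at 123, 121 and 121 CPM in FT671. Its FT671 libraries lay within 2 CPM of each other, and the log2 fold change was 0.35 (SE 0.0753, edgeR adjusted p = 0.00141).

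ERCC6, which works with ERCC8 at stalled polymerases, was at 28.9 ± 2.505 CPM in DMSO and 29.3 ± 3.23 CPM in FT671 (SD, n = 3 each), with a log2 fold change of 0.038. ERCC3, the other helicase of TFIIH, had a log2 fold change of 0.16. The damage sensors XPC and DDB2 had log2 fold changes of 0.14 and −0.20. DDB2, the lowest of the pathway, was at 14.8, 16.3 and 12.2 CPM in DMSO and at 12.4, 13.0 and 13.0 CPM in FT671, and the groups overlapped (edgeR adjusted p = 0.266).

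Of the base excision and single-strand break genes, POLB, the gap-filling polymerase (chr8:42338454-42371808), was at 43.1, 40.6 and 43.1 CPM in DMSO and at 60.2, 55.7 and 57.9 CPM in FT671. The groups were well apart, and the log2 fold change was 0.46 (SE 0.0893, edgeR adjusted p = 0.000771). The break sensor PARP1 was at 354, 364 and 364 CPM in DMSO and at 353, 316 and 317 CPM in FT671, where every library was lower, if only just for replicate 1 (log2 fold change −0.14, edgeR adjusted p = 0.123). The scaffold XRCC1 had a log2 fold change of −0.13 (edgeR adjusted p = 0.185), with its FT671 libraries also all below DMSO.

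For partners of 1 complex, the ratio of their counts within each library was computed, which does not depend on how libraries were scaled. Of these partners, BRCA1, BARD1, ATR, ATRIP, LIG4 and XRCC4 did not pass as single genes. The pairs were chosen with earlier results of these data known. The share of other gene pairs whose ratios did not overlap between groups was not computed. FANCD2 to FANCI was 1.30, 1.42 and 1.42 in DMSO and 1.07, 0.954 and 1.01 in FT671. BRCA1 to BARD1 was 5.05, 4.602 and 5.24 in DMSO and 3.85, 4.115 and 4.601 in FT671, so that DMSO replicate 2 and FT671 replicate 3 all but touched. ATR to ATRIP had a mean of 2.21 ± 0.525 and 1.64 ± 0.122 (SD, n = 3 each). In these 3 pairs the groups did not overlap, with differences of −0.44, −0.25 and −0.40 on the log2 scale (two-sided exact permutation test, p = 0.1 for each, the smallest that 3 libraries against 3 allow). XRCC5 to XRCC6 was 1.03 ± 0.079 in DMSO and 1.08 ± 0.0046 in FT671, overlapping between groups (exact permutation test, p = 0.4). LIG4 to XRCC4 also overlapped, at 0.626 ± 0.128 and 0.665 ± 0.219 (exact permutation test, p = 1).

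A further 5 pairs were chosen after their values had been seen, so their differences are descriptions. NBN to MRE11 was 1.01, 1.04 and 0.917 in DMSO and 1.55, 1.74 and 1.28 in FT671. NBN to RAD50 had a mean of 2.83 ± 0.666 in DMSO and 4.97 ± 0.75 in FT671, subject to the uncertain level of RAD50. XRCC3 to RAD51C went from 0.89 ± 0.189 to 0.555 ± 0.0108. The ratio of TOPBP1 to ATR was 2.84, 2.80 and 2.74 in DMSO and 1.60, 1.72 and 1.81 in FT671, and that of CHEK2 to ATM had a mean of 1.16 ± 0.218 and 2.004 ± 0.103. The TOPBP1 to ATR ratio in DMSO replicate 3 was near that of its group, although both genes were high in that library.

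**Figure D4:**
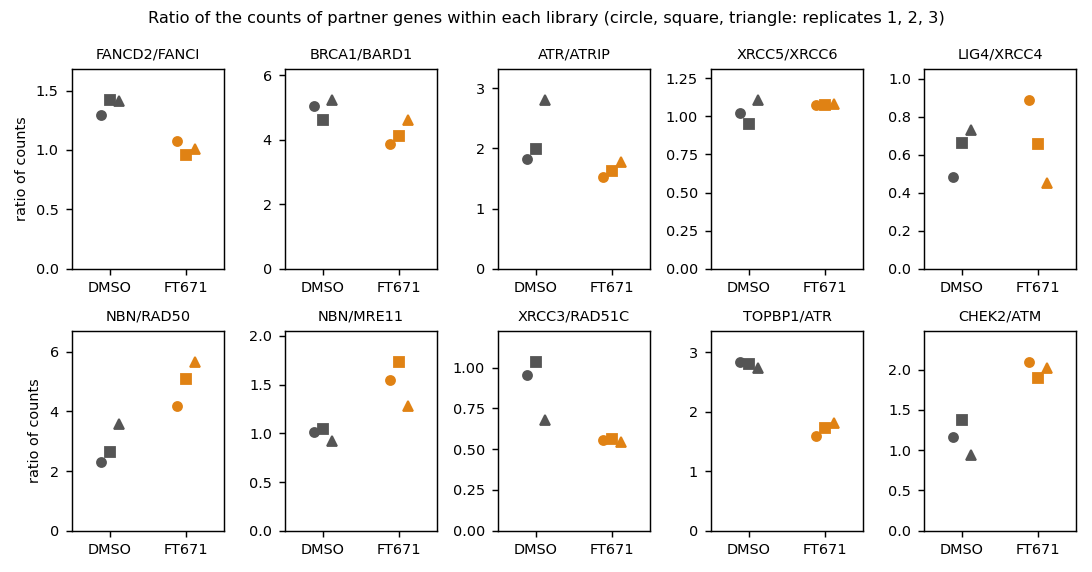
Each panel gives, for 1 pair of genes, the ratio of their counts (y axis, from 0) in each DMSO and FT671 library, with 1 symbol per replicate. The groups are separate in 8 panels and overlap for XRCC5 to XRCC6 and LIG4 to XRCC4. All pairs that were chosen after their values had been seen are among the separate panels. The share of separate ratios among other gene pairs was not computed.

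Compared per kilobase of annotated exon, the highest mean levels in DMSO were those of XRCC6 (96.4 CPM per kb), MDC1 (71.1), XRCC5 (58.8), PRKDC (38.0) and XRCC1 (32.1). The lowest was that of ERCC8, at 0.325 CPM per kb in DMSO and 0.569 CPM per kb in FT671. After FT671 the same 3 genes led, with XRCC6 at 114 CPM per kb, XRCC5 at 72.8 and MDC1 at 65.6, so XRCC5 and MDC1 changed places. The length counts every annotated exon of a gene once, so genes with many rarely used exons come out low.

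**Figure D5:**
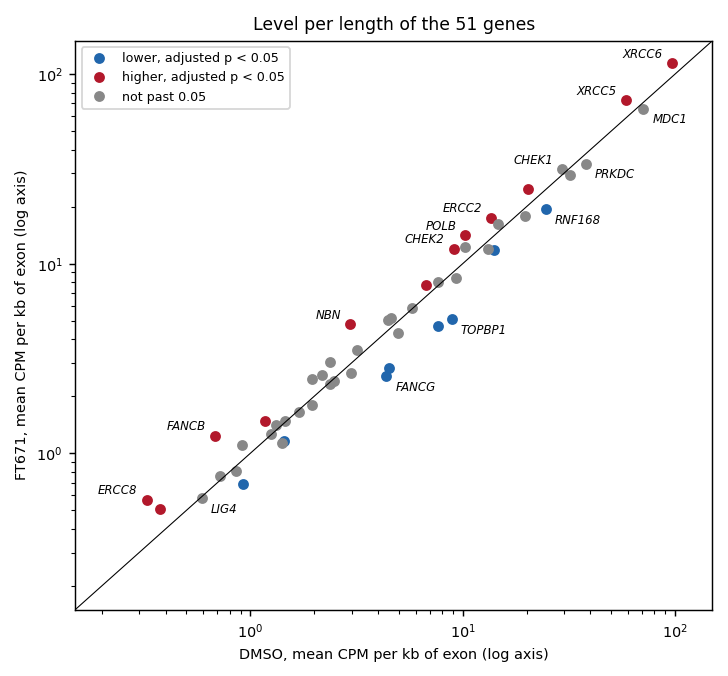
Each point is 1 of the 51 genes, with its mean CPM per kilobase of exon in DMSO on the x axis and in FT671 on the y axis, both logarithmic, and the line marks equal levels. TOPBP1, FANCG and RNF168 lie below the line and NBN, FANCB and ERCC8 above it, and XRCC6 has the highest level on both axes.

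The wider pathways were described with 135 other repair and checkpoint genes. Of these, 131 were tested, 24 fell and 35 rose, or 45% against 50.1% of all genes, and their median log2 fold change was 0.11. CENPS, GTF2H2, GTF2H4 and MGMT had too few counts. Over all genes tested, 26.5% fell and 23.6% rose. By part, 4 of 12 Fanconi and crosslink genes fell and 2 rose, and 6 of 33 recombination genes fell and 9 rose. Of 24 checkpoint genes 7 fell and 3 rose, and of 18 nucleotide excision genes 3 fell and 8 rose. Of 20 base excision and direct repair genes 4 fell and 6 rose. Of 11 end joining, 5 mismatch repair and 8 translesion synthesis genes 0 fell, and 3, 3 and 1 rose. At 1e-05, 5 of the 131 passed, against 5.92% of all genes. Among the 5 genes past 1e-05, WEE1, the kinase that holds back mitosis, was at 88.2, 91.1 and 92.1 CPM in DMSO and at 49.1, 47.1 and 48.2 CPM in FT671 (log2 fold change −0.91, edgeR adjusted p = 8.99e-07). The opposing phosphatase CDC25A also fell, from 97.6, 90.9 and 94.8 CPM to 54.6, 53.0 and 50.9 CPM (log2 fold change −0.84, edgeR adjusted p = 1.95e-06). SLX4, the nuclease scaffold of crosslink repair, was at 21.8, 18.3 and 19.8 CPM in DMSO and at 7.77, 4.87 and 7.95 CPM in FT671 (log2 fold change −1.51, edgeR adjusted p = 7.28e-06).

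UIMC1, which brings BRCA1 to ubiquitin at breaks, and GTF2H3, a subunit of TFIIH, rose. UIMC1 was at 49.7, 45.8 and 48.1 CPM in DMSO and at 79.1, 87.7 and 78.4 CPM in FT671 (log2 fold change 0.77, edgeR adjusted p = 8.06e-06). GTF2H3 was at 28.5, 28.9 and 33.8 CPM in DMSO and at 59.1, 62.4 and 53.4 CPM in FT671 (log2 fold change 0.95, edgeR adjusted p = 7.04e-06). None of these 5 genes overlapped between groups, and they were picked by adjusted p from these same libraries.

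Many repair genes are cell cycle regulated, so 43 proliferation genes were measured beside them. Of the 41 tested, 13 fell and 8 rose, or 51.2% against 50.1% of all genes, with a median log2 fold change of −0.043. The largest rises were those of MCM4 and CENPE, each 0.45 (edgeR adjusted p = 0.000111 and 0.0362), though the libraries of CENPE overlapped. The replication clamp PCNA fell by 1.44 (edgeR adjusted p = 5.15e-08), PLK1 by 0.90 (edgeR adjusted p = 2.41e-07) and AURKA by 0.78 (edgeR adjusted p = 5.55e-06), whereas the proliferation marker MKI67 had a log2 fold change of 0.20 (edgeR adjusted p = 0.298). Of the erythroid genes that mark K562, TAL1, KLF1, GATA1 and TFRC fell, and HBG1, HBG2 and HBZ rose. HBE1 was at or under 1.33 CPM in every library, but its annotated span overlaps that of HBG2 on the same strand. Reads that fall on both genes may have been left out, so the level of HBE1 is uncertain. Markers of other cells were at or near 0 for CD3E, CD14, MPO and ALB (at most 0.541 CPM), while COL1A1 reached 2.35 CPM, PECAM1 stood at 18.8 to 20.02 CPM and EPCAM at 58.6 to 86.6 CPM. The part of proliferation and of erythroid state in the changes of the repair genes was not tested.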

How the data were processed

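The authors depleted total RNA of ribosomal RNA (KAPA RNA HyperPrep with RiboErase), aligned the paired-end reads to hg38 with STAR and deposited 1 table of raw counts per gene and library, without normalization. The STAR version, annotation release and strand setting are not given in the sources used here. The 6 histone mark libraries of the series had no file and are not analysed here.

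Counts were matched by Ensembl identifier to GENCODE 44 (60295 of 60609 genes, and the 314 others held 0.0609% of the counts). Genes were filtered with filterByExpr and compared by the quasi-likelihood test of edgeR 4.0.16 with TMM scaling and no covariate, in R 4.3.3. P-values were adjusted by Benjamini-Hochberg over all 13895 genes, with thresholds of 0.05 and 1e-05. The fit was tested on simulated counts in which 200 genes were made to change. It recovered 59.8% of the genes changed by 0.5 on the log2 scale and 83.7% of those changed by 1. Smaller changes were not simulated, so a member that did not pass may still have changed. Alternatives were DESeq2 1.42.0 (Wald test, and its size factors in edgeR), library totals, no filter, at least 10 counts in every library, a replicate block, loess corrections (span 0.3) for gene length and GC content with and without the block, thinning to the smallest library, and each library left out.

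Members, pathways, lists, motifs and tests were chosen with earlier results of these data known. Values per library are given for the lowest and highest gene of each pathway, the partner pairs FANCD2-FANCI, BRCA1-BARD1, ATR-ATRIP, XRCC5-XRCC6 and LIG4-XRCC4, and other repair genes past 1e-05. The other genes given per library were chosen after their values were seen. Promoters came from RefSeq. A few marker genes are not reported here.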

Additional observations from a re-analysis of the deposited data

How the results depend on the processing

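No member that passed 0.05 changed direction under any of the 17 alternatives. Of the 20 that passed, 12 kept the call in all of them and 8 lost it in at least 1, and of the 31 others 14 gained a call in at least 1. The corresponding shares of all genes were not computed. The number that fell went from 8 to 5 with the gene length correction and lay between 5 and 9 with a library left out, with 5 without FT671 replicate 1 and 5 without FT671 replicate 3. Over all genes tested, 26.5% fell in the main fit and 23.9% with the gene length correction. Without FT671 replicate 1 the share was 22.8%, and without FT671 replicate 3 it was 22.3%. The number that rose went from 12 to 7 with no filter on low counts, to 19 with the gene length correction, and lay between 8 and 19 with a library left out, the 19 without DMSO replicate 3 and the 8 without DMSO replicate 1. The background moved as well. Over all genes tested, 3276 of 13895 rose in the main fit, 3049 of 31316 with no filter and 3848 of 13895 with the gene length correction. Without DMSO replicate 3, 3830 of 14909 genes rose, and without DMSO replicate 1, 2636 of 13301. Past 1e-05 the 0 members became 3 by DESeq2's Wald test, 6 with no filter, 1 with the gene length correction and 2 with the GC correction, and lay between 0 and 7 with a library left out, with 7 without DMSO replicate 3. The share of all genes past 1e-05 was 5.92% in the main fit, 12.4% by DESeq2's Wald test and 17.5% without DMSO replicate 3. For the other alternatives that share was not computed. Deviations of same-numbered libraries from their group means correlated at 0.115, −0.0605 and 0.14. With 3 libraries per group these values cannot settle whether the numbers pair the libraries, and the main fit used no pairing. With the replicate block 9 members fell, 11 rose and 0 passed 1e-05. With the block and the gene length correction 21 rose and 2 passed 1e-05, and with the block and the GC correction 3 passed it. Of all 13895 genes tested, 3761 fell and 3374 rose with the block, and 3919 rose with the block and the gene length correction. Among the other repair genes 18 to 27 fell and 25 to 48 rose under the alternatives. Over all genes tested under each alternative, 2972 to 4100 fell and 2522 to 4011 rose.

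Signs turned for 13 members, none of which passed 0.05 in the analysis of all 6 libraries without these changes. With thinning to the smallest library, the log2 fold change was −0.019 for FANCL, −0.012 for BRCA1, 0.078 for RAD51C, −0.22 for LIG4 and −0.078 for ERCC6. With library totals alone, the log2 fold change was −0.0021 for BRCA1, −0.0015 for RAD52 and −0.015 for LIG4. With no filter on low counts, the log2 fold change was −0.0039 for BRCA1, −0.0061 for RAD52 and −0.021 for LIG4. With the gene length correction, the log2 fold change was 0.093 for PALB2, 0.13 for RAD51C, 0.048 for ATR, 0.014 for MDC1 and 0.018 for TP53BP1. With the gene length correction and the replicate block, the log2 fold change was 0.073 for PALB2, 0.12 for RAD51C, 0.04 for RAD50, 0.029 for ATR, 0.015 for MDC1, 0.014 for TP53BP1 and −0.10 for XRCC4. With DESeq2's size factors, the log2 fold change was 0.015 for RAD51C. With the GC correction, the log2 fold change was 0.035 for RAD51C and −0.017 for XRCC4. With the GC correction and the replicate block, the log2 fold change was 0.017 for RAD51C, −0.078 for XRCC4 and −0.022 for LIG4. With the replicate block alone, the log2 fold change was −0.051 for XRCC4 and −0.028 for LIG4. With DESeq2's Wald test, the log2 fold change was −0.002 for LIG4. With a library left out, the log2 fold change of those that turned ranged from −0.014 to 0.37 for FANCL, −0.062 to 0.17 for BRCA1, −0.076 to 0.055 for PALB2, −0.10 to 0.10 for RAD51C, −0.033 to 0.14 for RAD52, −0.16 to 0.10 for ATR, −0.22 to 0.17 for XRCC4, −0.23 to 0.18 for LIG4, −0.07 to 0.14 for PMS2 and −0.016 to 0.12 for ERCC6. The cause of these changes was not tested. Depth limits the genes of low count most, with an SE of up to 0.269 on the log2 scale for LIG4.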
